A study of Mus musculus with 12 samples.

Results

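The genes described here mark visceral and primitive endoderm, the extra-embryonic endoderm of the early mouse embryo, and were followed through mesendoderm differentiation of wild-type (WT) and *Meteor* knockout (KO) embryonic stem cells (ESCs). They were taken as a list of known markers and found by matching Ensembl identifiers to gene symbols: 10 of the 46517 genes listed. They comprise the transcription factors *Gata6*, *Sox7* and *Hnf4a*, the endocytic components *Dab2*, *Amn* and *Cubn*, and the secreted proteins *Afp*, *Ttr*, *Apoa1* and *Apoe*. The 12 RNA-seq libraries formed 4 groups of 3: WT and KO ESCs at day 0, and embryoid bodies of both genotypes at day 3. All came from the same Eomes-EGFP reporter line, labelled as C57BL/6. ESCs grew on mouse embryonic fibroblast feeders in serum medium with LIF, and embryoid bodies formed in hanging drops of a serum-containing cardiogenic medium. KO cells lacked the *Meteor* locus, an enhancer with its lncRNA start, after cutting with the Cas9 nickase and clone picking under puromycin. It was not stated which KO clone or clones gave the 3 KO replicates, nor whether replicates were separate cultures, so p-values measure the spread between these libraries only.

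Primitive endoderm arises beside the pluripotent epiblast in the blastocyst, under GATA factors, and gives rise to visceral and parietal endoderm. Visceral endoderm absorbs maternal material through the receptor complex of cubilin and amnionless, with megalin and the adaptor DAB2, and secretes apolipoproteins, transthyretin and alpha-fetoprotein as the fetal liver later does. Definitive endoderm, by contrast, comes from epiblast cells that pass through the primitive streak under *Eomes*. Several factors, among them *Gata6*, *Sox17* and *Foxa2*, are used by both endoderms. *Apoe* and *Dab2* are also expressed by many other cell types.

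The libraries held 17455927 to 23910943 counts on genes (median 19651103.5). *Meteor* was checked through ENSMUSG00000103968, which averaged 3.87 CPM (counts scaled to a common library total, with TMM factors) in WT and 0 in KO ESCs, and 3.10 and 0 at day 3. *Upf3b* was also nearly absent from KO cells, at 52.0 CPM in WT against 0.465 in KO ESCs and 51.1 against 0.014 at day 3, so effects of its loss and of the deletion cannot be told apart. One library stood apart: WT day 3 replicate 3. Its summed CPM of 8 cardiac and blood-vessel mesoderm markers was 544, against 58.8 and 64.9 in the other two, and 8.19 to 12.2 in KO.

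Promoter windows of 7 members were used, 11 windows in all, from RefSeq's table (GRCm38.p6, 250 bases before to 50 after each start). Of these 7 members, 5 held letters that GATA, FOXA or SOX factors are known to bind. The shares given below are per motif and per window, so they are no measure for this count of members. Windows of the genes whose levels moved most between libraries are shown, 5′ to 3′, with matches in capitals. Both strands were searched, for GATA with the letters AGATAA or AGATAG, or with TGATAA or TGATAG, for SOX as ACAAAG or as ACAATG, for FOXA as TGTTTAC or as TATTTAC, and for the nuclear receptor site as AGGTCA. In these windows no match overlapped another. *Afp* is on the plus strand at chr5:90490464-90490763, *Apoa1* on the plus strand at chr9:46228380-46228679, and the upstream of 2 *Hnf4a* starts on the plus strand at chr2:163506607-163506906.
Afp: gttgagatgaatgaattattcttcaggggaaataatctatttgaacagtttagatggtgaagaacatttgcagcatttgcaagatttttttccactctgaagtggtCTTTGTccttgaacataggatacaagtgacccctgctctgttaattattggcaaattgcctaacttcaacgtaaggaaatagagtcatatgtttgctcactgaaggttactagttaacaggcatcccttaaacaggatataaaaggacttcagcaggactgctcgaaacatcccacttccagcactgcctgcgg
Apoa1: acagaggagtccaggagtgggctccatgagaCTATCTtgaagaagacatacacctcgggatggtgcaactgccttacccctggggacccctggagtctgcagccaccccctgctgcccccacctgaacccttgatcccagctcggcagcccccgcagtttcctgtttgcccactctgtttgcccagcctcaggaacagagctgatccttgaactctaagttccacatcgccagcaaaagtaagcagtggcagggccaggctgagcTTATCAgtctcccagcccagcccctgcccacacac
Hnf4a: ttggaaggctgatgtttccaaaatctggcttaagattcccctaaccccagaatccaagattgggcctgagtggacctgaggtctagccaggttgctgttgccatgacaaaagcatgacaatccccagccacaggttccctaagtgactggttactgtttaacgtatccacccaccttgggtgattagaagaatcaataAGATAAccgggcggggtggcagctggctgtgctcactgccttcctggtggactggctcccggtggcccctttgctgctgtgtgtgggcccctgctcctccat
The *Afp* window held 1 SOX match, *Apoa1* held 2 GATA matches and *Hnf4a* held 1 GATA match. Of 32851 promoters of the same length, 29.8% held a GATA match, 28.6% a SOX match, 6.54% a FOXA match and 16.3% a nuclear receptor site. These matches describe the letters only, and no match was found in the windows of *Amn* and *Cubn* or at the downstream *Hnf4a* start. *Gata6*, *Ttr* and *Sox7* are not shown.

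*Gata6* (ENSMUSG00000005836), the factor that commits cells to primitive endoderm and is also used in definitive endoderm and heart, rose on differentiation in WT cells and was lower in KO than in WT embryoid bodies. WT ESCs held 1.42, 3.55 and 3.33 CPM, KO ESCs 2.07, 4.52 and 3.17, WT embryoid bodies 30.0, 29.4 and 63.4, and KO embryoid bodies 0.85, 2.67 and 1.71. Every WT day 3 library was above every other library, and the ESC groups overlapped. At day 3 the mean was 40.9 ± 19.5 CPM in WT and 1.74 ± 0.912 in KO (SD, n = 3 each). The difference between the genotypes was -4.62 on the log2 scale (SE 0.35, edgeR adjusted p = 4.69e-05). The call held in 15 of 15 fits that left out 1 library or all libraries of 1 replicate number. WT cells gained 3.95 on the log2 scale from day 0 to day 3 (SE 0.33, edgeR adjusted p = 1.36e-05). In KO cells *Gata6* fell by 0.94 over the same days (SE 0.35, edgeR adjusted p = 0.0407), a call that was lost without the replicate block (-0.91, edgeR adjusted p = 0.13) and in 8 of the 15 fits that left libraries out, among them those without KO day 0 replicate 2 (-0.75, edgeR adjusted p = 0.167) and KO day 3 replicate 3 (-0.78, edgeR adjusted p = 0.149). The KO effect at day 3 differed from that at day 0 by -4.88 (SE 0.48, edgeR adjusted p = 0.000519). The overlapping transcript 1010001N08Rik on the opposite strand reached 1.95 CPM at most.

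Of the 10 members, all passed the filter on low values, several through day 3 libraries alone, and *Gata6* was the only one called between KO and WT at day 3. That is 1 of 10, against 30.9% of the 15673 genes tested, and 1 of 10 did not overlap between genotypes, against 43.8%. The median log2 fold change of the members was -1.06 (all genes 0.00).

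*Sox7*, an endoderm factor of the primitive and parietal lineages that also marks vessel and blood progenitors, had higher values in KO than in WT ESCs and fell in KO cells on differentiation. WT ESCs held 1.15, 1.72 and 1.96 CPM and KO ESCs 5.77, 7.99 and 13.5, WT embryoid bodies 0.280, 1.11 and 12.9, and KO embryoid bodies 0.700, 1.31 and 0.749. The ESC groups did not overlap, whereas at day 3 only WT replicate 3 stood above the KO libraries. The difference between KO and WT ESCs was 2.45 (SE 0.79) and missed the threshold (edgeR adjusted p = 0.054), but passed it with a replicate block within each day (2.46, edgeR adjusted p = 0.0176) and without WT day 3 replicate 3 (2.48, edgeR adjusted p = 0.00104), replicate 1 (2.44, edgeR adjusted p = 0.0216) or replicate 2 (2.47, edgeR adjusted p = 0.0423). With only the ESC libraries it passed as well (2.46, edgeR adjusted p = 7.42e-05), as with DESeq2 (adjusted p = 0.00769) and with no filter on low counts (edgeR adjusted p = 0.0116). It did not pass without the replicate block, with RLE scaling or with limma-voom. This day 0 difference passed in only 4 of 15 fits that left libraries out, where the highest edgeR adjusted p was 0.206. Over those fits its size ran from 2.00 to 2.74. From day 0 to day 3 *Sox7* fell by 3.22 in KO cells (SE 0.84, edgeR adjusted p = 0.00816), in 15 of 15 fits that left libraries out, and its change in WT was 0.88 (SE 0.84, edgeR adjusted p = 0.393). The difference of the KO effect between the days was -4.10 (SE 1.19, edgeR adjusted p = 0.0437). It passed in 3 of 15 fits that left libraries out, each of them without 1 WT day 3 library, and was -2.14 without WT day 3 replicate 3 (edgeR adjusted p = 0.0375). Without WT day 3 replicate 3 the day 3 difference turned from -1.65 to 0.34 (edgeR adjusted p = 0.64), whereas without WT day 3 replicate 1 it was -2.34 (edgeR adjusted p = 0.0442).

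*Hnf4a*, the nuclear receptor that drives visceral endoderm and liver secretory genes, likewise had higher values in KO than in WT ESCs, but none of its differences passed the test with all libraries and the replicate block common to both days. ESCs held 1.37, 1.04 and 0.634 CPM in WT and 5.38, 7.44 and 4.44 in KO. Embryoid bodies held 0.420, 0.818 and 11.7 CPM in WT, and 0.900, 2.16 and 1.25 in KO. KO ESCs again lay above all WT ESCs without overlap, and at day 3 a single WT library exceeded all KO libraries. The day 0 difference of 2.49 (SE 0.97) was not called (edgeR adjusted p = 0.101) but it passed once replicates were blocked inside each day (2.51, edgeR adjusted p = 0.0243) and without WT day 3 replicate 3 (2.48, edgeR adjusted p = 0.000925). With only the ESC libraries it passed as well (2.51, edgeR adjusted p = 0.000198), as with DESeq2 (adjusted p = 0.0246) and with no filter on low counts (edgeR adjusted p = 0.0356). It did not pass without the replicate block, with RLE scaling or with limma-voom. It passed in only 2 of 15 fits that left libraries out, where the highest edgeR adjusted p was 0.31. Over those fits its size ran from 1.92 to 3.27. At day 3 the difference was -1.18 (SE 1.01, edgeR adjusted p = 0.407), and without WT replicate 3 it was 1.40 in the opposite direction and called (edgeR adjusted p = 0.0393). From day 0 to day 3 the change in KO cells was -2.10 (SE 0.94, edgeR adjusted p = 0.0796), called with DESeq2 (adjusted p = 0.026) and without WT day 3 replicate 3 (-2.02, edgeR adjusted p = 0.00038). The difference of the KO effect between the days was -3.67 (SE 1.40, edgeR adjusted p = 0.104), and passed with a replicate block within each day (-3.26, edgeR adjusted p = 0.0491), with DESeq2 (adjusted p = 0.0237) and with no filter on low counts (edgeR adjusted p = 0.0358). It also passed without WT day 3 replicate 1 or 2 (-4.47 and -4.48, edgeR adjusted p = 0.0383 and 0.0462), and stood at -1.08 without WT day 3 replicate 3 (edgeR adjusted p = 0.223).

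At day 0, 3 of 10 members did not overlap between KO and WT ESCs (34.2% of all genes tested), *Sox7* and *Hnf4a* being higher and *Apoa1*, near its detection limit, lower. None of the 10 was called (20.4% of all genes), while 2 passed an unadjusted p of 0.05 and DESeq2 called 2. The feeder markers, of which 9 of 10 passed the filter, summed to 81.9 to 250.4 CPM in WT and 121 to 332 in KO ESCs, and to 45.5 to 74.6 and 40.0 to 81.3 at day 3; their part in the day 0 values was not tested. Replicate 2 had the highest feeder sum in both ESC groups, and was the highest library for 5 of 10 members in WT ESCs (28.7% of all genes) and for 7 of 10 in KO ESCs (27.7%). In bulk libraries, fewer cells of a type and less RNA per cell cannot be told apart.

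**Figure D1:**
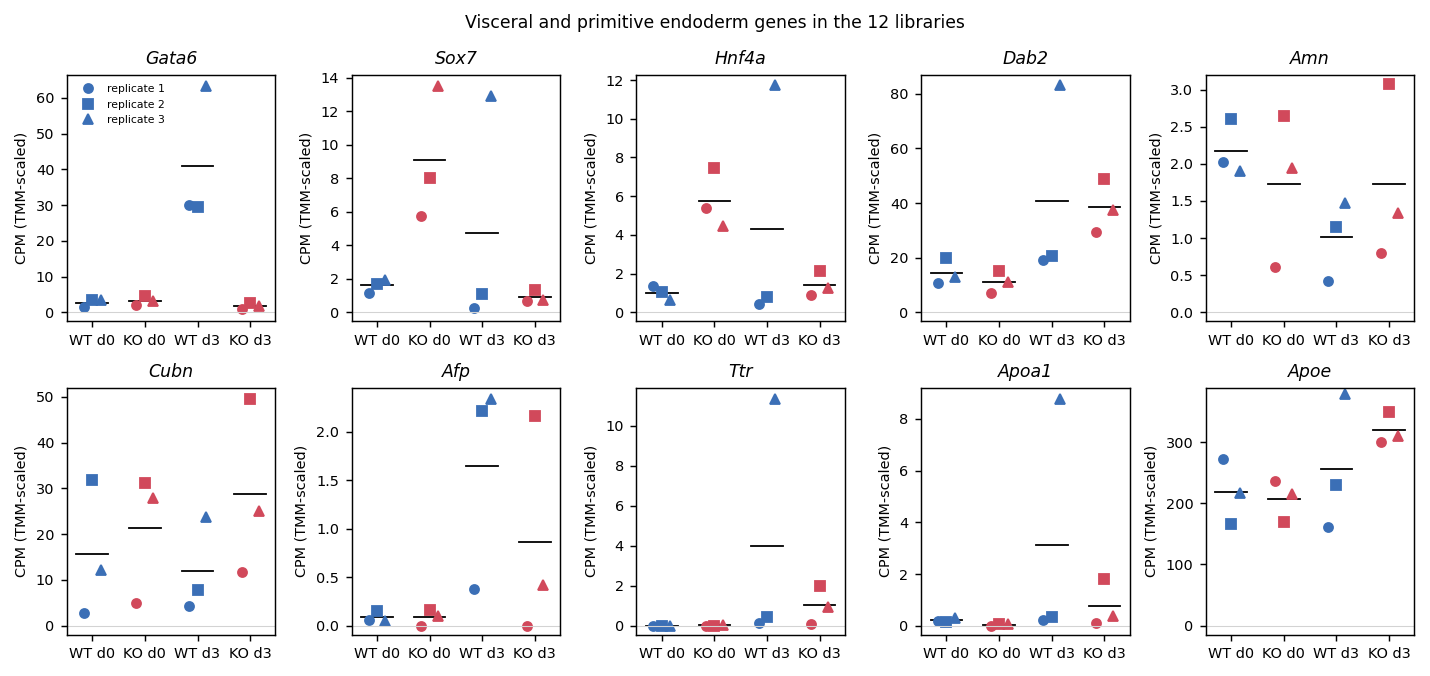
CPM (TMM-scaled, linear axis) of each gene in the 12 libraries, by genotype and day; points are libraries, shaped by replicate number, and black bars are group means (n = 3). *Gata6* stands apart in all 3 WT day 3 libraries, whereas for *Sox7*, *Hnf4a*, *Dab2*, *Ttr* and *Apoa1* the WT day 3 mean is carried by replicate 3.

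With all libraries and the replicate block common to both days, none of the endocytic members was called between the genotypes at day 3. *Dab2*, a clathrin adaptor needed for visceral endoderm uptake, held 10.6, 19.9 and 12.9 CPM in WT ESCs, 6.95, 15.1 and 11.3 in KO ESCs, 19.1, 20.5 and 83.2 in WT embryoid bodies and 29.4, 49.0 and 37.6 in KO embryoid bodies. All KO day 3 libraries lay above KO ESCs and above WT day 3 replicates 1 and 2, but below WT replicate 3. *Dab2* rose in KO cells from day 0 to day 3 by 1.84 (SE 0.44, edgeR adjusted p = 0.00502) and in WT by 1.36 (SE 0.44, edgeR adjusted p = 0.0243), the latter lost without WT day 3 replicate 3 (0.47, edgeR adjusted p = 0.0837) and without WT day 0 replicate 3 (1.01, edgeR adjusted p = 0.129). Between genotypes at day 3 the difference was 0.06 (SE 0.43, edgeR adjusted p = 0.93), but 0.95 and called without WT replicate 3 (edgeR adjusted p = 0.012).

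*Cubn* encodes cubilin, the ligand-binding chain, and varied more between replicates than between groups. It held 2.78, 31.9 and 12.2 CPM in WT ESCs and 4.99, 31.1 and 28 in KO ESCs, then 4.34, 7.8 and 23.8 in WT embryoid bodies and 11.8, 49.6 and 25.0 in KO. The highest WT ESC library held 11.5 times the lowest, and at day 3 KO exceeded WT in 3 of 3 pairs of the same number although the groups overlapped. The day 3 difference was 1.25 (SE 0.49, edgeR adjusted p = 0.0788). It was called with a replicate block within each day (1.35, edgeR adjusted p = 0.0269), without WT day 3 replicate 3 (1.90, edgeR adjusted p = 0.0253) and without WT day 0 replicate 2 (1.34, edgeR adjusted p = 0.0406).

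*Amn*, the membrane anchor of cubilin, was low throughout, at 2.02, 2.61 and 1.90 CPM in WT ESCs, 0.616, 2.65 and 1.94 in KO ESCs, 0.420, 1.16 and 1.48 in WT and 0.800, 3.07 and 1.33 in KO embryoid bodies. The genotypes overlapped on both days, and WT day 3 lay below WT day 0 without overlap. It fell by 1.22 from day 0 to day 3 in WT (SE 0.42, edgeR adjusted p = 0.031), a call lost without the replicate block (-1.10, edgeR adjusted p = 0.137) and without WT day 0 replicate 1 (-0.74, edgeR adjusted p = 0.118), WT day 3 replicate 1 (-1.04, edgeR adjusted p = 0.0993) or replicate 2 (-1.01, edgeR adjusted p = 0.121). In KO cells the change was -0.01 (edgeR adjusted p = 0.986), and the difference of the KO effect between the days was 1.21 (SE 0.59, edgeR adjusted p = 0.194).

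*Lrp2*, which encodes megalin, the partner of cubilin and no member of the 10, separated the genotypes in opposite directions on the 2 days. ESCs held 108, 232 and 238 CPM in WT and 53.4, 77.1 and 134 in KO, and embryoid bodies 90.6, 112 and 114 in WT and 259, 362 and 476 in KO. It was lower in KO ESCs (-1.14, SE 0.18, edgeR adjusted p = 0.00246), although the ESC groups overlapped, and higher in KO embryoid bodies without overlap (1.74, SE 0.18, edgeR adjusted p = 0.000202). The day 3 call held in 15 of 15 fits that left libraries out, and the 2 effects differed by 2.88 (SE 0.26, edgeR adjusted p = 0.00036). *Lrp2* was singled out after its values were seen, as the receptor that works with *Cubn* and *Amn*. Its values need not come from visceral endoderm, as WT ESCs already held 108 CPM or more. The paper reports raised neuroectoderm factors in KO cells on both days. Which cells carried *Lrp2* was not tested.

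Of the secreted members, *Afp* and *Ttr* had higher values at day 3 in both genotypes, with high values in single libraries. Both passed the filter only through day 3 libraries. *Afp*, alpha-fetoprotein, a serum protein of yolk sac and fetal liver, held at most 0.157 CPM in WT ESCs and 0.165 in KO ESCs. It reached 0.373, 2.21 and 2.33 in WT and 0, 2.16 and 0.416 in KO embryoid bodies. The genotypes overlapped at day 3, where KO replicate 1 had no count. *Afp* passed the filter only through day 3 libraries, so it had to differ between the days, and its day tests are given as descriptions. *Afp* rose by 4.31 in WT (SE 0.82, edgeR adjusted p = 0.00151) and by 2.91 in KO (SE 0.86, edgeR adjusted p = 0.0152), the latter lost without KO day 3 replicate 2 (1.5, edgeR adjusted p = 0.19), without KO day 0 replicate 2 (2.75, edgeR adjusted p = 0.104) and without the replicate block (3.13, edgeR adjusted p = 0.063). Between genotypes at day 3 it stood at -1.42 (SE 0.61, edgeR adjusted p = 0.102), and passed without KO replicate 2 (-2.66, edgeR adjusted p = 0.0254) or WT replicate 2 (-2.35, edgeR adjusted p = 0.029).

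*Ttr*, transthyretin, which carries thyroid hormone and retinol-binding protein, had no count in any WT ESC library and 1 count in all KO ESCs. WT embryoid bodies held 0.140, 0.433 and 11.3 CPM and KO embryoid bodies 0.10, 1.99 and 0.957, so the groups overlapped and WT replicate 3 was the highest. In WT the 250 counts at day 3 against 0 at day 0 made it at least 74.3-fold higher (bound set by 3 counts over the group, edgeR adjusted p = 0.0065). Replicate 3 held 238 of those counts; without it 12 counts remained over the other two libraries, which made *Ttr* at least 5.34-fold higher and still called (edgeR adjusted p = 0.0152). Without WT day 0 replicate 3 that call was lost (edgeR adjusted p = 0.0619). In KO cells 60 counts stood against 1, a ratio of 54.1 (95% exact interval 9.35 to 2173, counting error only; edgeR adjusted p = 0.0212), and without the replicate block the adjusted p was 0.0778 in edgeR. The KO call was also lost without KO day 0 replicate 2 (edgeR adjusted p = 0.0782) or replicate 3 (edgeR adjusted p = 0.154). A gene at or near 0 at day 0 that passed the filter had to differ between the days, so these day tests too are descriptions.

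*Apoa1*, the main protein of high-density lipoprotein, held 0.164, 0.157 and 0.317 CPM in WT ESCs, 0, 0.0551 and 0.0511 in KO ESCs, 0.233, 0.337 and 8.76 in WT and 0.10, 1.82 and 0.375 in KO embryoid bodies. It followed *Ttr* in having WT replicate 3 and KO replicate 2 highest at day 3. Like *Ttr*, it passed the filter only through day 3 libraries. The rise in WT was 3.27 (SE 1.25, edgeR adjusted p = 0.046) and rested on replicate 3, without which it was 0.30 (edgeR adjusted p = 0.812). It passed in 5 of 15 fits that left libraries out. In KO, 43 counts at day 3 stood against 2 at day 0, a ratio of 19.4 (95% exact interval 5.05 to 165, counting error only), which was not called (edgeR adjusted p = 0.05, just above the threshold before rounding). KO replicate 2 held 32 of the 43 counts, and without it the ratio was 6.94 (95% exact interval 1.52 to 64.5; edgeR adjusted p = 0.251). The change passed in 4 of 15 fits that left libraries out, among them those without WT day 3 replicate 3 (edgeR adjusted p = 0.00771), WT day 3 replicate 2 (edgeR adjusted p = 0.0166) or KO day 3 replicate 3 (edgeR adjusted p = 0.0069).

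At day 3 neither *Ttr* (-0.94, SE 1.17, edgeR adjusted p = 0.582) nor *Apoa1* (-1.33, SE 1.18, edgeR adjusted p = 0.423) was called between genotypes, and single libraries set the direction of both. Without WT replicate 3 the values were 1.55 for *Ttr* and 1.2 for *Apoa1*, and without KO replicate 3 they were 1.48 and 0.53. Without KO replicate 2 both passed as lower in KO, at -3.02 for *Ttr* (edgeR adjusted p = 0.021) and -3.53 for *Apoa1* (edgeR adjusted p = 0.0348), and likewise without WT replicate 2, at -2.96 (edgeR adjusted p = 0.0205) and -3.01 (edgeR adjusted p = 0.0397).

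*Apoe*, a lipid carrier made by many cell types, was the one abundant member. It held 273, 166 and 217 CPM in WT ESCs, 236, 170.1 and 215 in KO ESCs, 162, 229 and 378 in WT embryoid bodies and 299.8, 349 and 309 in KO embryoid bodies. KO embryoid bodies lay above KO ESCs without overlap and within the WT day 3 range. None of its 5 contrasts was called. The nearest was day 3 against day 0 in KO (0.64, SE 0.26, edgeR adjusted p = 0.0559), which DESeq2 called (0.61, adjusted p = 0.0319). Without WT day 3 replicate 3 it was called higher in KO embryoid bodies (0.73, edgeR adjusted p = 0.0481, against 0.35 and 0.327 with all libraries), and without WT day 3 replicate 1 its rise in WT was called (0.55, edgeR adjusted p = 0.0422).

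Levels are compared between genes only per kilobase of exon. In WT embryoid bodies *Apoe* led at 120.0 ± 51.7 CPM per kilobase, followed by *Gata6* (6.29 ± 2.99), *Dab2* (5.58 ± 4.99), *Ttr* (3.35 ± 5.38), *Apoa1* (2.52 ± 3.96), *Sox7* (1.44 ± 2.14), *Hnf4a* (0.895 ± 1.33), *Cubn* (0.802 ± 0.696), *Amn* (0.552 ± 0.294) and *Afp* (0.487 ± 0.326; SD, n = 3 each). After *Apoe*, each gene in that order differed from the next by less than their SDs. In KO embryoid bodies *Apoe* (149 ± 12.1) and *Dab2* (5.27 ± 1.34) led, and *Gata6* (0.268 ± 0.140) stood beside *Hnf4a* (0.298 ± 0.135), *Sox7* (0.279 ± 0.102) and *Afp* (0.255 ± 0.340).

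From day 0 to day 3, 6 of 10 members were called in WT (56.2% of all genes tested) and 5 of 10 in KO (56.6%). In WT 5 were higher, against 30.7% of all genes, and 1 lower, against 25.5%, and in KO 3 were higher, against 29.4%, and 2 lower, against 27.2%. *Afp*, *Ttr* and *Apoa1* held at most 0.317 CPM in any ESC library and passed the filter only through day 3, so they had to differ, and nothing is read from these counts. Called higher in both genotypes were *Dab2* and, with that limit, *Afp* and *Ttr*. The medians, which include *Afp*, *Ttr* and *Apoa1*, were 1.47 in WT and 0.62 in KO (0.07 and 0.03 over all genes). Without WT day 3 replicate 3 the WT median was 0.0604, with 3 members called higher and 1 lower (51.3% of all genes called). *Gata6* and *Sox7* were the members whose KO effect differed between the days, both lower, 2 of 10 against 15.5% of all genes in either direction and 7.34% lower. With a replicate block within each day, with DESeq2 and with no filter on low counts *Hnf4a* was called as well, which made 3 of 10.

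**Figure D2:**
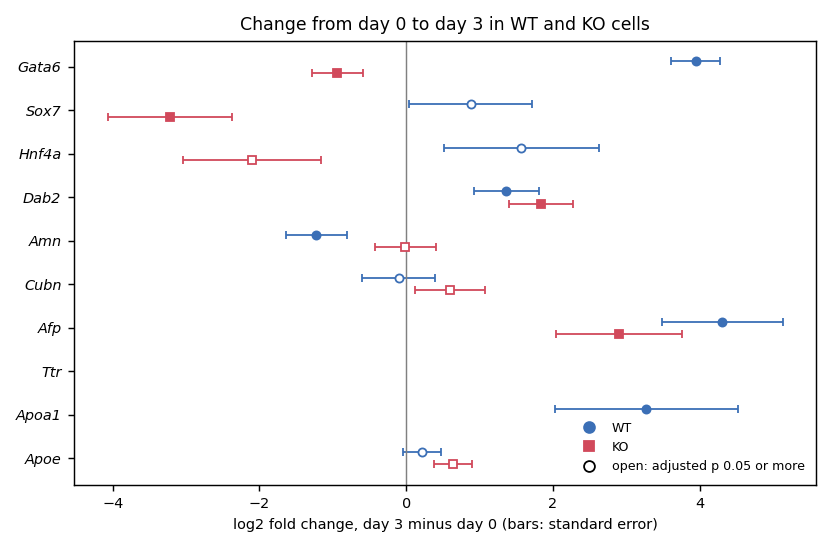
Log2 fold change from day 0 to day 3 (x axis) for each gene in WT (circles) and KO (squares), with SE; filled symbols passed an adjusted p of 0.05. *Gata6* lies at 3.95 in WT and -0.94 in KO; *Ttr* in both genotypes and *Apoa1* in KO are not plotted because their day 0 counts were 0 to 2 in all.

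At day 3 every member was highest in WT replicate 3 among the WT libraries, 10 of 10 against 35.5% of all genes tested, and every member was highest in KO replicate 2 among the KO libraries, 10 of 10 against 32.3%. In 7 of 10 members WT replicate 3 exceeded 2 times the higher of the other two libraries (5.88% of all genes), and in 4 of 10 KO replicate 2 did so (1.58%). *Ttr* and *Apoa1* passed the filter through WT replicate 3 and KO replicate 2 alone, and *Afp* through these and WT replicate 2. High values there were thus favoured in advance for these genes, and the shares over all genes are no measure for them. Against the mean of the other two, WT replicate 3 held 39.6 times as much *Ttr*, 30.7 times *Apoa1*, 18.9 times *Hnf4a* and 18.6 times *Sox7*, whereas *Gata6* was at 2.14 times and *Afp* at 1.80 times. The median over all genes was 0.996. The same library was at 14.4 times the others over the median mesoderm marker, at 3.33 times over 27 other extra-embryonic endoderm genes, and at 0.961 times over 11 definitive endoderm genes. The part of mesoderm cells in the members' values was not tested; *Sox7* and *Gata6* are also expressed in vessel or heart progenitors. Without this library, 5 of 10 members were called at day 3 (22.1% of all genes tested), *Hnf4a*, *Dab2*, *Cubn* and *Apoe* higher in KO and *Gata6* lower, with a median of 1.05 in place of -1.06.

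**Figure D3:**
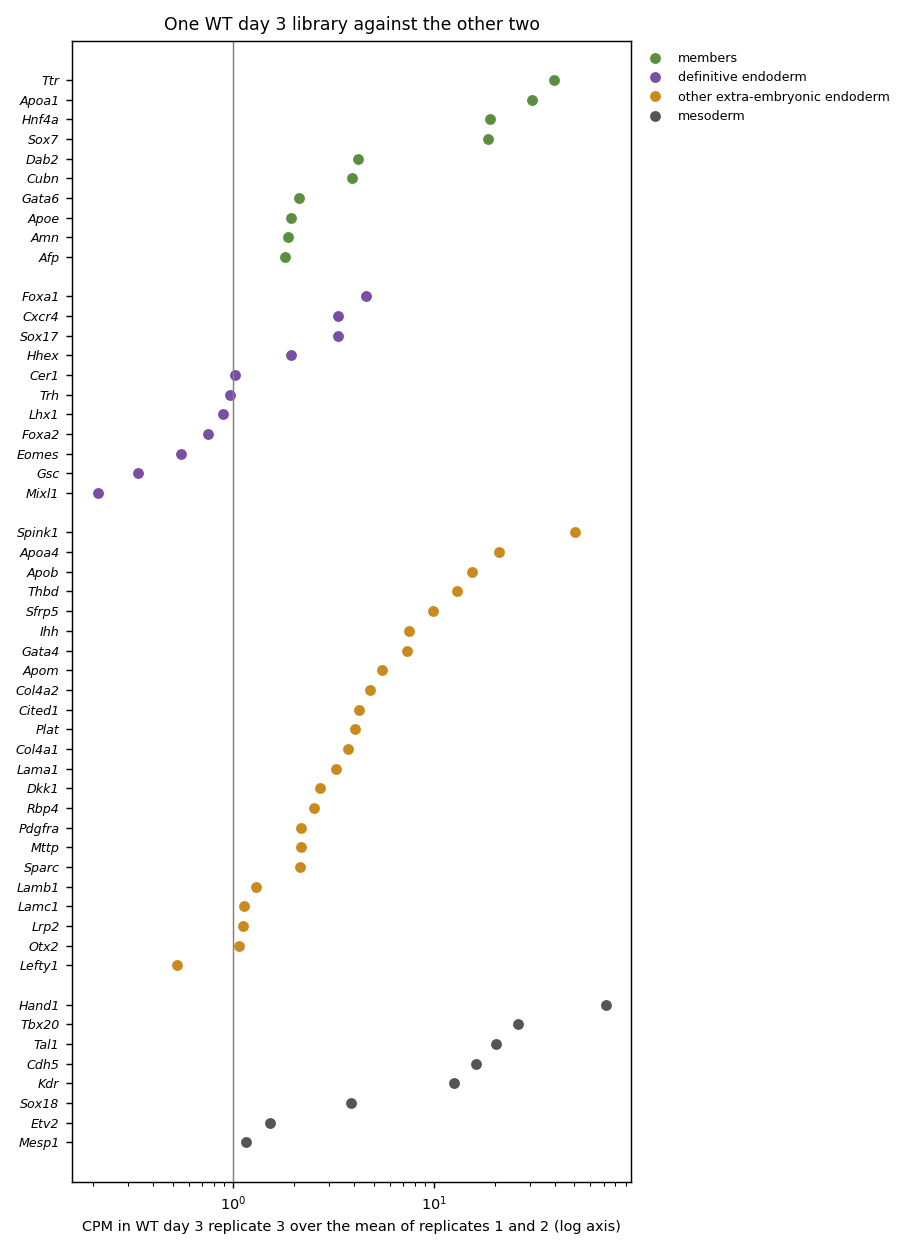
CPM in WT day 3 replicate 3 divided by the mean of WT day 3 replicates 1 and 2 (log axis), for the 10 genes (green), 11 definitive endoderm genes, other extra-embryonic endoderm genes and 8 mesoderm genes that passed the filter; genes shared with the definitive endoderm list are drawn there only, and a gene not reported here is not drawn. All 10 members lie right of 1, from *Afp* at 1.80 to *Ttr* at 39.6, whereas the definitive endoderm genes spread from 0.211 to 4.57.

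Within groups, deviations of *Ttr* and *Apoa1* from their group means ran together (Pearson r 0.98 over the 12 libraries), as did those of *Hnf4a* with *Ttr* (0.944) and with *Apoa1* (0.930). *Cubn* and *Apoe* were least related (-0.008). Over the same 12 libraries, the closest patterns to *Gata6* among 12890 protein-coding genes were *Pdgfra* (r 0.989), *Mgat1* (0.987) and *Dkk1* (0.979), to *Sox7* *Bmp4* (0.943), *Sh3tc1* (0.940) and *Dysf* (0.939), and to *Amn* *Cavin3* (0.928), *Arfgef2* (0.892) and *Stk10* (0.879). These correlations share the 4 group means or single high libraries and are given as descriptions.

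Most genes of the definitive endoderm list were, like *Gata6*, lower in KO embryoid bodies. The paper counts *Sox17*, *Foxa2*, *Cxcr4*, *Eomes* and *Lhx1* of this list among mesendoderm genes. It also describes its model as favouring the cardiac fate over definitive endoderm. A lower level of mesendoderm and of definitive endoderm thus cannot be told apart here. Of 11 tested (13 listed), 10 were called lower (16.7% of all genes were lower), with a median of -5.43, and 10 of 11 did not overlap between genotypes (43.8% of all genes). The log2 difference was -5.95 for *Sox17* (SE 0.63), -5.44 for *Foxa2* (SE 0.37), -3.53 for *Cxcr4* (SE 0.34) and -1.87 for *Eomes* (SE 0.40, edgeR adjusted p = 0.00646, the highest of the 4), the largest changes being those of *Cer1* (-7.53) and *Lhx1* (-7.10). Without WT day 3 replicate 3 still 10 of 11 were lower (1672 of all 15406 genes tested then), with a median of -4.98. This contrast with 1 of 10 members is one of counts; the difference between the lists was not tested, and both lists use the same libraries.

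**Figure D4:**
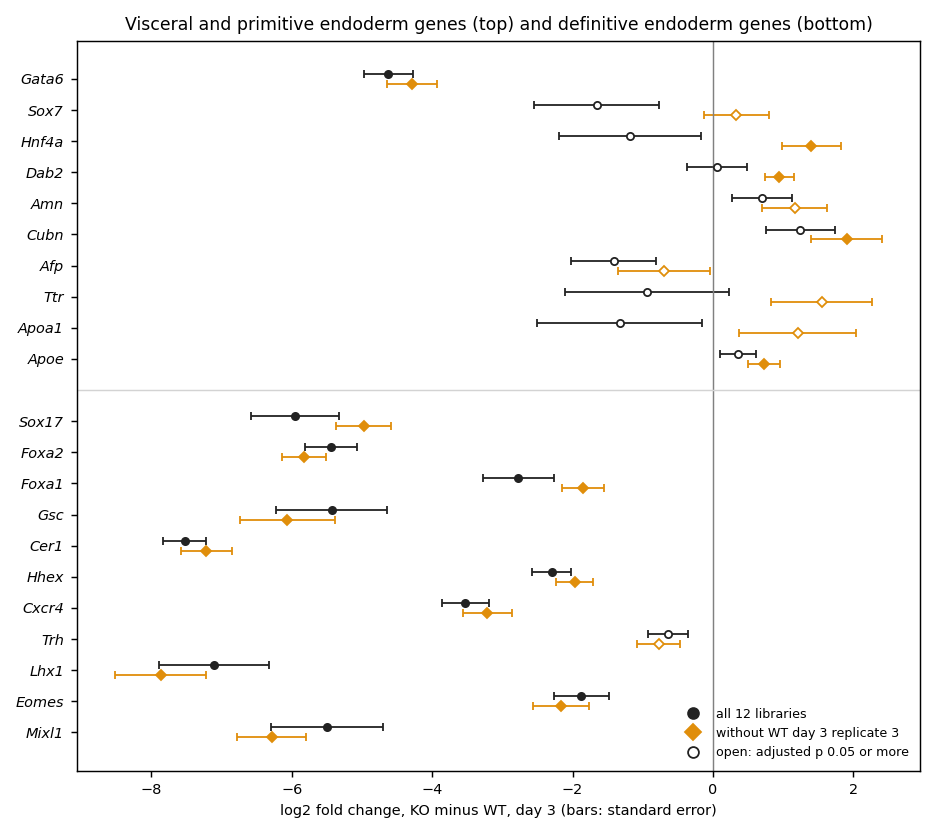
Log2 fold change between KO and WT embryoid bodies (x axis) with SE, for the 10 genes (top) and the definitive endoderm genes tested (bottom), with all 12 libraries (black circles) and without WT day 3 replicate 3 (orange diamonds); filled symbols passed an adjusted p of 0.05. *Gata6* lies among the definitive endoderm genes at -4.62, while *Hnf4a* moves from -1.18 to 1.40 when that library is left out.

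Other extra-embryonic endoderm genes were called in both directions. Of 27 tested (31 listed), 10 were lower and 3 higher in KO embryoid bodies (30.9% of all genes called), with a median of -1.11. Without WT day 3 replicate 3, 8 of 25 tested were lower and 3 higher (22.1% of all genes called), and the median was -0.19. *Sox17*, *Cer1* and *Hhex* stand in both this list and that of definitive endoderm. Among the primitive and parietal genes 3 of 11 were lower (16.7% of all genes), namely *Sox17*, *Pdgfra* (-4.00, SE 0.35), a receptor kinase of primitive endoderm and mesoderm, and *Gata4* (-3.98, SE 0.76), the relative of *Gata6*, while *Lamc1*, a basement membrane laminin chain, was higher (0.60, SE 0.09). *Gata4* held 15.3, 12.2 and 101 CPM in WT and 1.60, 3.87 and 1.71 in KO embryoid bodies, so all WT libraries lay above all KO libraries. Replicate 3 held most of the WT level of *Gata4*, and without it the difference was -2.58 (SE 0.40, edgeR adjusted p = 0.00214). Among the visceral genes 4 of 10 tested were lower (16.7% of all genes), among them *Spink1* (-3.86, SE 1.22), *Cited1* (-2.65, SE 0.44) and *Rbp4* (-1.98, SE 0.46), and *Lrp2* was higher. The call of *Spink1* passed in 5 of 15 fits that left libraries out, and without WT day 3 replicate 3 its value was -1.04 (edgeR adjusted p = 0.148). Of the 6 anterior visceral endoderm genes, *Cer1*, *Dkk1* (-6.65, SE 0.37) and *Hhex* (-2.30, SE 0.28) were lower and *Lefty1* was higher (1.74, SE 0.25).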

How the data were processed

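Poly(A)-selected stranded libraries of 12 samples were sequenced as single reads of 100 bases, per the labels. The authors trimmed (cutadapt 1.3), aligned (STAR 2.4.2a, GRCm38) and counted reads per gene (HTSeq 0.6.1), per the submitters' processing notes, and deposited raw counts. Whether counting used strand is not given in the sources used here. The lines that name no gene, 46.3% to 51.0% of alignments and mostly multi-mapped, were left out, so members with near-identical copies may be undercounted.

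Genes above 1 CPM in at least 1 sample (15673) were tested with edgeR 4.0.16 (TMM, quasi-likelihood, all 12 samples, group plus replicate number as a block), with Benjamini-Hochberg adjustment over all genes and calls at 0.05. A fold is on the log2 scale, and SE is its size over the root of the F statistic. The replicate number stands in for the batch factor of the study's methods, whose content is not stated. Deviations of same-numbered samples correlated within each day (6 pairs, r 0.315 to 0.671, 12659 genes) but not across days (mean -0.0565), so a block within each day was also fitted. Replicates differed beyond counting noise. On simulated day 3 data, 94 of 100 2-fold and 100 of 100 4-fold changes were recovered, with 5 wrong calls among 14594 genes. The simulation used a fixed small spread and no replicate effect, and placed changes only in better-counted genes. Recovery for members with few counts or a single high library was not tested. Alternatives used DESeq2 1.42.0, limma 3.58.1 (voom), RLE scaling, other filters, fewer samples and samples left out. Exon lengths came from GENCODE M21 and promoters from RefSeq. Genes named beyond the members were the up to 3 largest called day 3 changes of each marker list, plus *Sox17*, *Foxa2*, *Cxcr4*, *Eomes*, the locus checks and the 3 closest patterns to *Gata6*, *Sox7* and *Amn*; *Lrp2*, *Rbp4*, *Lamc1*, *Lefty1* and 1010001N08Rik were added after their values were seen. A further listed gene is included in the list counts but not reported here. Members and lists were chosen with earlier results of these data known.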

Additional observations from a re-analysis of the deposited data

Results flagged for a closer look

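The results below are differences between the KO effect at day 3 and that at day 0 that passed the interaction test (edgeR, adjusted p below 0.05). They were sought among the members and a chosen set of further genes, not among all genes tested. Among the members these were *Gata6*, with a difference of -4.88 on the log2 scale, and *Sox7*, with -4.10. The *Gata6* difference held in 15 of 15 fits that left out libraries and that of *Sox7* in 3 of 15. For *Gata6* the difference lay at day 3, where the KO effect was -4.62 against 0.26 at day 0, and for *Sox7* the effects had opposite signs, 2.45 at day 0 and -1.65 at day 3, neither of which passed alone.

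Other genes named in the report differed between the days as well. *Sox17* did so by -5.82, *Foxa2* by -4.43, *Cxcr4* by -3.61, *Eomes* by -1.99, *Hhex* by -2.45, *Dkk1* by -6.17, *Pdgfra* by -4.34 and *Gata4* by -3.99. *Lrp2* differed in the other direction, by 2.88. The *Eomes* difference passed in 4 of 15 fits that left out libraries and that of *Gata4* in 7 of 15. The others named so far in this paragraph passed in 15 of 15. With limma-voom the *Gata4* difference was lost (adjusted p = 0.0917). Outside the searched set, *Otx2* (3.79), *Lefty1* (2.12) and *Lamb1* (0.56) also passed, in the direction of *Lrp2*. *Lamc1* (-0.82) and *Upf3b* (-4.37) passed in the other direction. Fits of these genes with libraries left out are not given here. All share the libraries of both contrasts.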

How the results depend on the processing

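Over the 10 members, 0 were called between KO and WT at day 0, and 2 with a replicate block within each day, with DESeq2 or with no filter on low counts, and 3 with only the samples of the contrast. At day 3 the 1 call became 2 with a replicate block within each day, with no filter and with only the samples of the contrast. In WT the 6 day calls became 3 with limma-voom or only the samples of the contrast, and 2 (of 4 tested) when every sample needed at least 10 counts. In KO the 5 day calls became 2 without the replicate block, with limma-voom or with at least 10 counts, and 8 with DESeq2, no filter or only the samples of the contrast. The 2 differences between the days became 3 with the replicate block within each day, DESeq2 or no filter, and 1 with at least 10 counts, which also left 3 of 4 definitive endoderm genes and 7 of 16 other extra-embryonic endoderm genes called, in place of 10 and 13. The count minimum tests fewer genes; the cause of the other changes was not tested. Leaving out samples moved these counts over 0 to 2, 1 to 5, 3 to 6, 2 to 8, 1 to 3, 10 to 11 and 10 to 18, in the order KO against WT at day 0 and day 3, day change in WT and KO, difference between the days, definitive endoderm and other extra-embryonic endoderm.

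The following values changed sign under an alternative. *Afp* at day 0 was 0.0196 without the replicate block, 0.0195 with it within each day, and 0.00693 with limma-voom. *Dab2* at day 3 was -0.0829 without the replicate block, and the *Lhx1* difference between the days was 0.0311 without it and 0.11 with the replicate block within each day. With samples left out, day 0 values ran from -0.81 to 0.0239 for *Amn*, -0.39 to 0.36 for *Afp* and -0.24 to 0.21 for *Apoe*. Day 3 values ran from -2.50 to 0.59 for *Sox7*, -2.20 to 1.40 for *Hnf4a*, -0.43 to 0.95 for *Dab2*, -3.04 to 1.55 for *Ttr* and -3.74 to 1.37 for *Apoa1*. Day changes in WT ran from -1.16 to 1.58 for *Sox7*, -1.02 to 2.76 for *Hnf4a*, -0.82 to 0.82 for *Cubn* and -0.18 to 0.65 for *Apoe*, and in KO from -0.38 to 0.24 for *Amn*. Differences between the days ran from -0.0184 to 1.39 for *Dab2*, -0.26 to 1.73 for *Cubn*, -5.40 to 1.53 for *Ttr*, -0.80 to 3.76 for *Apoa1*, -3.77 to 0.66 for *Spink1* and -2.70 to 1.69 for *Lhx1*. The replicate block within each day was not run for day changes.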

Other observations

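Laminin genes were called between the genotypes in ESCs. *Lama1*, a laminin chain of Reichert's membrane, held 69.6, 112 and 60.3 CPM in WT and 222, 265 and 247 in KO ESCs, without overlap, and was higher by 1.61 (SE 0.38, edgeR adjusted p = 0.0148). *Lamc1* was higher by 1.42 in KO ESCs, while *Lamb1* (-0.73), *Cited1* (-1.46) and *Otx2* (-3.21) were lower. These were 5 of the 6 other extra-embryonic endoderm genes called at day 0 of 27 tested, *Lrp2* being the sixth. Over all genes tested 20.4% were called at day 0, and the genes here were named after their values were seen.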
